A study of Mus musculus with 21 samples.

Results

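The 9 genes described here are Id1, Id2, Id3, Id4, Hes1, Hes6, Hey1, Hey2 and Heyl, from families best known as inhibitors of differentiation. They were taken by name, 9 of 49980 genes in the gene table, and a peak was assigned to a gene when it lay within 1 kb of the gene span in mouse build GRCm38. The cells were C2C12, an immortalized mouse myoblast line that fuses into myotubes when serum is withdrawn, so every library comes from a single line. Cycling cells grew in DMEM with 20% FBS and were frozen in 10% DMSO without crosslinking. Day 2 cells were confluent cells kept for 48 h in DMEM with 2% horse serum, and they were assayed in 4 preparations, fresh or frozen, and native or treated for 5 minutes with 0.1% formaldehyde. CUT&RUN, which releases and sequences the DNA around an antibody-bound protein, was run against PSME3, a nuclear activator of the 20S proteasome, and against H3K4me3, the histone mark of active promoters. Each antibody had 3 replicates in cycling cells and 1 library in each day 2 preparation. For each antibody, 8 peak lists were used: 3 replicate lists and 1 pooled list of cycling cells, and 4 lists of day 2 cells.

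Id proteins have a helix-loop-helix but no basic region, so they dimerize with E proteins and keep them, and MyoD, off DNA. Hes1, Hey1, Hey2 and Heyl are basic helix-loop-helix repressors that are switched on by Notch signalling, whereas Id1, Id2 and Id3 are classical targets of BMP and SMAD signalling. Hes6 differs from the other Hes proteins in that it antagonizes Hes1 and favours differentiation. The Id and Hes genes as a class are known for holding precursor cells, myoblasts among them, in an undifferentiated state.

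All 9 genes had an H3K4me3 peak in the pooled cycling list, and 8 of the 9 had one in all 8 H3K4me3 lists. The exception was Heyl. Of all genes, 35.9% had an H3K4me3 peak in the pooled list and 28.9% had one in every list. The labelled cell type was checked with marker genes. All 8 myoblast markers had H3K4me3 in all 3 cycling replicates and in all 4 day 2 lists, while 9 of 9 markers of differentiating muscle had it in all 4 day 2 lists and 1 of 9 in all 3 cycling replicates. Of the markers of leukocytes, endothelium, epithelium, hepatocytes and neural cells, none had H3K4me3 in all 4 day 2 lists, while 1 each of 5 leukocyte, 4 endothelial, 3 hepatocyte and 3 neural markers and 0 of 4 epithelial markers had it in all 3 cycling replicates. Read totals are not part of the lists, which leaves sequencing depth unknown. The lists held 14372 to 40999 H3K4me3 peaks per library, and cycling replicate 2 stood apart with 40999 peaks of a median width of 662 bp. PSME3 lists held 776 to 3070 peaks in cycling replicates and 18 to 186 at day 2.

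The 9 genes fell into a broad and a narrow group by the width of H3K4me3 in the pooled cycling list. Id2, Id3, Hes1 and Id1 lay under peaks of 9248, 8760, 8426 and 8292 bp, which covered 100% of each gene span. These 4 peaks ranked at the 99.32, 99.12, 99 and 98.92 percentile of width among the 23663 pooled peaks. Hey1 (3855 bp), Hes6 (3282 bp), Id4 (2490 bp), Hey2 (2221 bp) and Heyl (490 bp) were narrower, from the 86.93 percentile for Hey1 down to the 15.71 percentile for Heyl. Among the 17935 genes with a pooled peak the ranks were lower. The 4 broad genes were at the 93.3 to 95.01 percentile of summed width, Hey1 at 64.71 and Heyl at 4.048. The pooled peak covered 95.5% of the span of Hes6, 66.88% of Hey1, 37% of Id4, 6.465% of Hey2 and 3.003% of Heyl. The pooled list has no replicates, so the order was read from the replicates. Among them Id2 was at 9149 to 9393 bp, Id3 at 8101 to 9529 bp, Hes1 at 8194 to 8366 bp and Id1 at 5208 to 8592 bp, so these neighbours overlapped, and so did Hey1 (3744 to 3932 bp) with Hes6 (2632 to 4155 bp). Hes6 in turn was above Id4 (2252 to 2372 bp) in every replicate, and Id4 was above Hey2 (1368 to 2235 bp). The separation of the broad group depends on counting whole peaks. With peaks clipped to the gene span plus 1 kb on each side, which limits the width by the length of the gene, Hes1, Id2 and Id3 had 4440, 4294 and 3571 bp in the pooled list and Id1 had 3160 bp, below Hey1 (3461 bp) and Hes6 (3282 bp). Here and below, width is the summed width of all H3K4me3 peaks assigned to a gene.

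**Figure D1:**
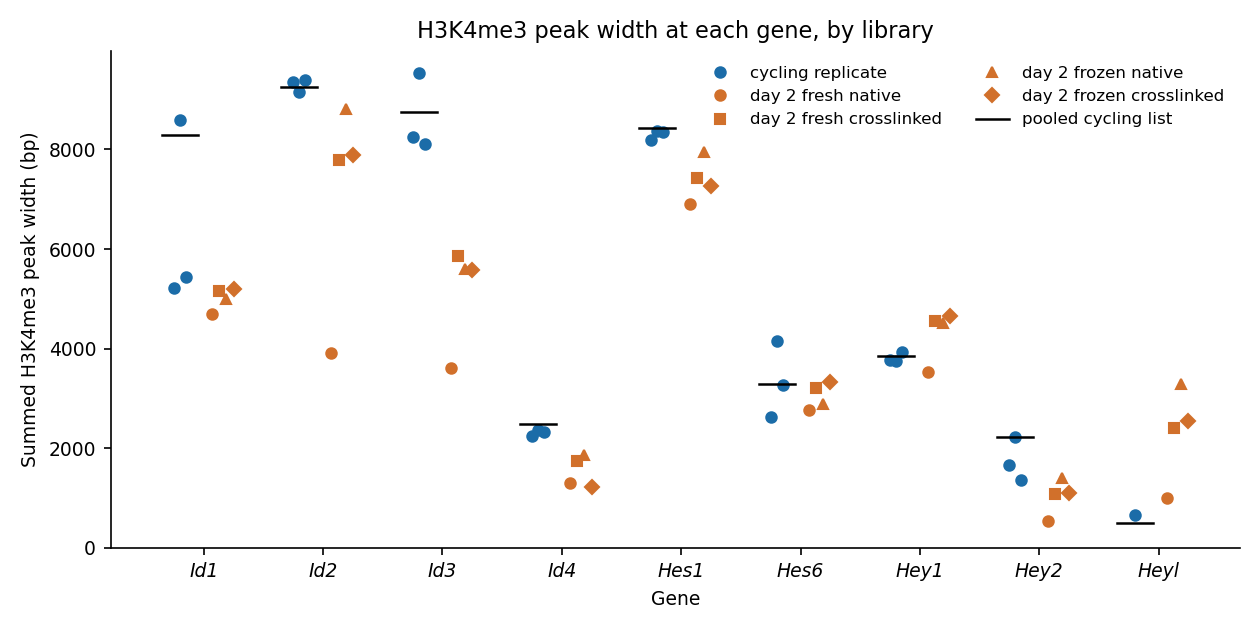
Summed width of H3K4me3 peaks in bp (y axis, linear from 0) at each of the 9 genes (x axis). Points are single libraries, blue for 3 cycling replicates and orange for 4 day 2 preparations, and black lines are the authors' pooled cycling list. Heyl has no point for cycling replicates 1 and 3 because those lists hold no peak there, and the fresh native preparation is the lowest day 2 point at 8 of the 9 genes.

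Fold enrichment, a ratio of the signal in a peak to background, gave a related order in the pooled list. It was 19.8 at Id2, 15.8 at Id1, 15.6 at Hes1, 15.1 at Id3 and 13.8 at Id4. Hes6 and Hey1 had 11.6 and 11.3, Hey2 had 4.64 and Heyl 1.93, close to the threshold of the list with a q-value of 0.0387. Fold enrichment depends on the library, so it was ranked within each list among the genes with a peak. By rank, Id2 stayed between the 67.68 and 90.85 percentile in all 7 libraries. Id4 ranked higher in each of the 3 cycling replicates than in any of the 4 day 2 lists, as did 19.6% of all genes with a peak in every list, and none of the 8 genes ranked higher at day 2 without overlap (4.53% of all). With 1 of 8, the separation at Id4 does not stand out from the background.

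**Figure D2:**
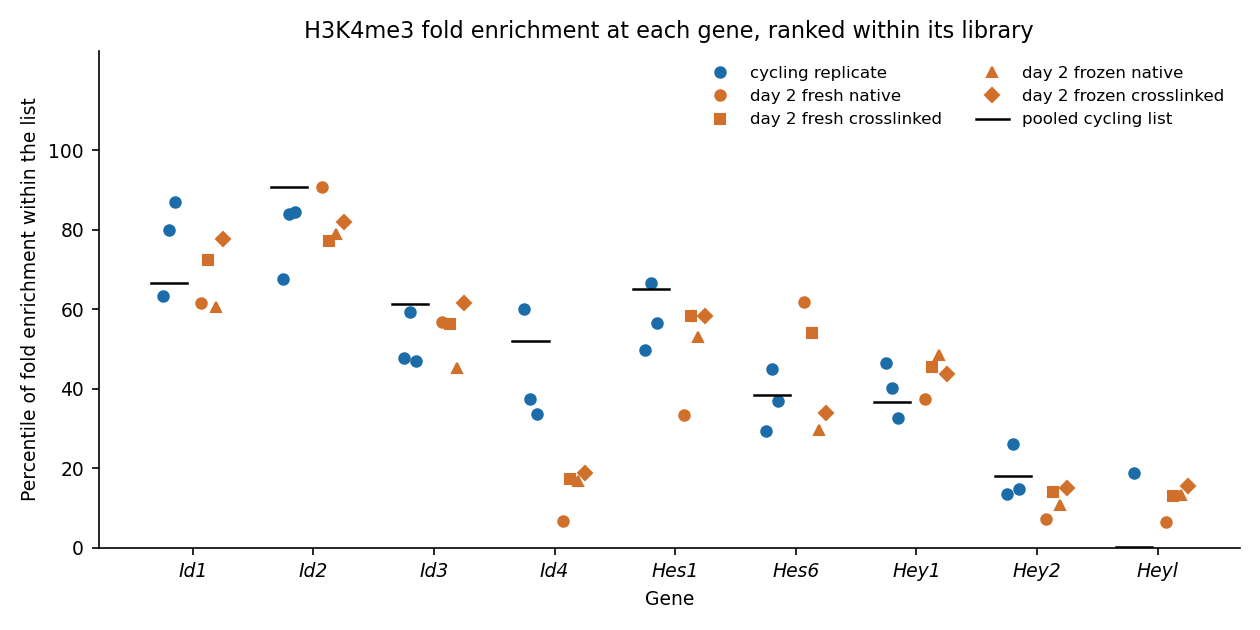
Percentile of H3K4me3 fold enrichment (y axis) at each gene (x axis), ranked within each list among genes with a peak in that list. Blue points are 3 cycling replicates, orange symbols are 4 day 2 preparations and black lines the pooled cycling list. Of the 8 genes with a peak in every list, the groups do not overlap at Id4, which was so in this direction for 19.6% of all such genes.

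Cycling and day 2 cells were then compared to ask whether the domains of these genes narrow or widen as the cells differentiate. Over the 14431 genes with a peak in every list, the summed H3K4me3 width was smaller at day 2. The difference of library medians was -0.37 on the log2 scale. Changes were therefore measured relative to the median of each library, as day 2 minus cycling on the log2 scale, with limma across all 14431 genes. Of these, 250 genes (1.73%) were wider at day 2 and 393 (2.72%) were wider in cycling cells at a Benjamini-Hochberg adjusted p of at most 0.05. Without centring, 38 genes were wider at day 2 and 846 in cycling cells. Of the 8 genes that could be tested, Hey1 alone was called, and it was wider at day 2. The median change of the 8 genes was -0.02, beside 0.01 over all genes tested. Before centring, the widths of 5 of the 8 (Id1, Id2, Id3, Id4 and Hes1) did not overlap and were larger in cycling cells, which held for 41.5% of all genes tested, and none of the 8 was wider at day 2 without overlap, beside 0.707% of all genes. Only the frozen native preparation matches the handling of cycling cells, so for the other preparations stage and handling cannot be told apart. Each preparation is a single library, so the spread over day 2 libraries is a spread over preparations. The study calls the cycling replicates biological replicates. A smaller share of cells with a mark and less of it in each cell cannot be told apart in these lists either.

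Id1 measured 5208, 8592 and 5434 bp in cycling replicates 1, 2 and 3, and 4701, 5151, 4988 and 5207 bp at day 2, given here and below in the order fresh native, fresh crosslinked, then frozen native and frozen crosslinked. The libraries other than cycling replicate 2 lay close together, within 5434 and 4701 bp. In replicate 2 and in the pooled list, the domain ran on to 6531 and 6513 bp from the lower-coordinate end of the gene, where the other 6 libraries ended between 3695 and 3900 bp and had a separate peak further out. The centred change was 0.05 (SE 0.14, limma adjusted p = 0.855), and -0.32 without centring.

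Id2 measured 9344, 9149 and 9393 bp in cycling cells and 3916, 7780, 8810 and 7892 bp at day 2. The low fresh native value came from a domain that was called as 2 peaks, and the farther of them lay beyond 1 kb from the gene. Counted over the extent of the pooled cycling peak instead, that library covered 79.3% of it, the other day 2 libraries 84.1% to 95.3% and the cycling replicates 98.9% to 100%. The centred change in width was -0.09 (SE 0.20, limma adjusted p = 0.821). The 3 genes whose widths tracked those of Id2 most closely over the 7 libraries were Cdk17, Nr3c1 and Kirrel, with root mean square differences of 0.14, 0.14 and 0.15 on the log2 scale.

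Id3 measured 8256, 9529 and 8101 bp in cycling cells and 3607, 5863, 5592 and 5578 bp at day 2, so every cycling value was above every day 2 value. In cycling cells a single domain ran from between -4363 and -3824 bp to between 4269 and 5165 bp, counted from the lower-coordinate end of the gene, where this gene starts. At day 2 the domain began between -1851 and -1293 bp, and all 4 lists held a separate peak farther out within the extent of the pooled cycling peak, on the lower-coordinate side in 3 lists and on the other side, from 3041 to 4134 bp, in fresh native cells. The day 2 libraries covered 53.7% to 80.9% of the pooled cycling peak, and the cycling replicates 92.5% to 100%. The mean width fell from 8629 ± 784 bp (SD, n = 3) to 5160 ± 1040 bp (SD over 4 preparations). Relative to the library medians the change was -0.40 (SE 0.11, 95% interval -0.65 to -0.14), and it missed the threshold over all genes (limma adjusted p = 0.0898). The exact permutation test of this gene alone gave a two-sided p of 0.0286, the smallest that 3 against 4 libraries allow. Before adjustment, 3224 of the 14431 genes tested had a limma p under 0.05. The size of the change depends on the 1 kb limit. With peaks taken up to 3 kb from the gene, which adds the separate outer peaks of day 2, it was -0.11 (limma adjusted p = 0.537). With the width clipped to the gene span plus 1 kb it was 0.28 (limma adjusted p = 0.204). That window of 3571 bp was filled in every library but fresh native, so the clipped width could not show a loss farther out.

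Id4 measured 2252, 2372 and 2324 bp in cycling cells and 1304, 1747, 1872 and 1225 bp at day 2, again without overlap. The mean was 2316 ± 60.4 bp (SD, n = 3) in cycling cells and 1537 ± 320 bp (SD over 4 preparations) at day 2. The centred change in width was -0.25 (SE 0.18, limma adjusted p = 0.434). It was -0.0923 without the frozen crosslinked preparation and -0.0042 with frozen native as the only day 2 library. Its fold enrichment was 17.7, 7.05 and 16.3 in the cycling replicates and 3.06, 4.47, 7.97 and 5.68 at day 2. In the same fit on fold enrichment, Id4 changed by -0.72 (SE 0.14, limma adjusted p = 0.0107) and was the only one of the 8 genes called, in a fit that called 2.78% of all genes tested as higher in cycling cells and 3.05% as higher at day 2. Replicate 2, at 7.05, was below the frozen native preparation, at 7.97, so the unranked values overlapped.

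Hes1 measured 8194, 8366 and 8352 bp in cycling cells and 6895, 7418, 7953 and 7261 bp at day 2. The groups did not overlap, but the difference of 8304 ± 95.5 bp (SD, n = 3) to 7382 ± 439 bp (SD over 4 preparations) was smaller than the shift of the library medians, and the centred change was 0.20 (SE 0.13, limma adjusted p = 0.39), and -0.17 without centring. Hes6 measured 2632, 4155 and 3279 bp in cycling cells and 2763, 3216, 2886 and 3331 bp at day 2. Its groups overlapped, with a centred change of 0.25 (SE 0.12, limma adjusted p = 0.249), and -0.12 without centring.

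Hey1 measured 3780, 3744 and 3932 bp in cycling cells and 3540, 4555, 4521 and 4660 bp at day 2. In bp it was wider at day 2 in 3 of the 4 preparations, and fresh native was below all cycling replicates. Relative to its library median, which was the lowest (1962 bp), fresh native was also above every cycling replicate. The domains of the other 3 preparations began 490 to 602 bp into the gene from its lower-coordinate end. Cycling domains began at 1142 to 1288 bp, and every domain ended between 4906 and 5149 bp. Relative to the library medians Hey1 widened by 0.54 (SE 0.11, 95% interval 0.28 to 0.79, limma adjusted p = 0.0358), with an exact two-sided permutation p of 0.0286. Without centring the change was 0.17 (limma adjusted p = 0.35), so the call depends on the centring, and it passed the threshold in 9 of 19 alternatives. It was lost without cycling replicate 1 (limma adjusted p = 0.0579), without replicate 3 (0.0866) and without any 1 of the day 2 preparations (0.0726 to 0.0917), while the change stayed between 0.53 and 0.60.

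Hey2 measured 1659, 2235 and 1368 bp in cycling cells and 534, 1080, 1408 and 1094 bp at day 2. The groups overlapped, since frozen native was above cycling replicate 3, and the centred change was -0.46 (SE 0.23, limma adjusted p = 0.287).

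Heyl had no H3K4me3 peak in cycling replicates 1 and 3 and a peak of 668 bp in replicate 2, the list with the most peaks. At day 2 its summed width was 994 bp in fresh native, 2401 bp in fresh crosslinked, 3299 bp in frozen native and 2554 bp in frozen crosslinked cells, all above the cycling value. The last 3 values are sums over 3, 2 and 2 peaks. Fold enrichment was 3.13 in cycling replicate 2 and 3.02, 3.67, 6.36 and 4.68 at day 2, with q-values from 0.0097 in fresh native to 1.75e-12 in frozen native cells. H3K4me3 in all 4 day 2 lists and in at most 1 cycling replicate was found at 78 genes, 0.156% of all. That rule describes the pattern of Heyl itself. The share is over all 49980 genes, of which 14981 had a peak in the fresh native list. Heyl could not enter the fit because it lacked a peak in some lists.

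**Figure D3:**
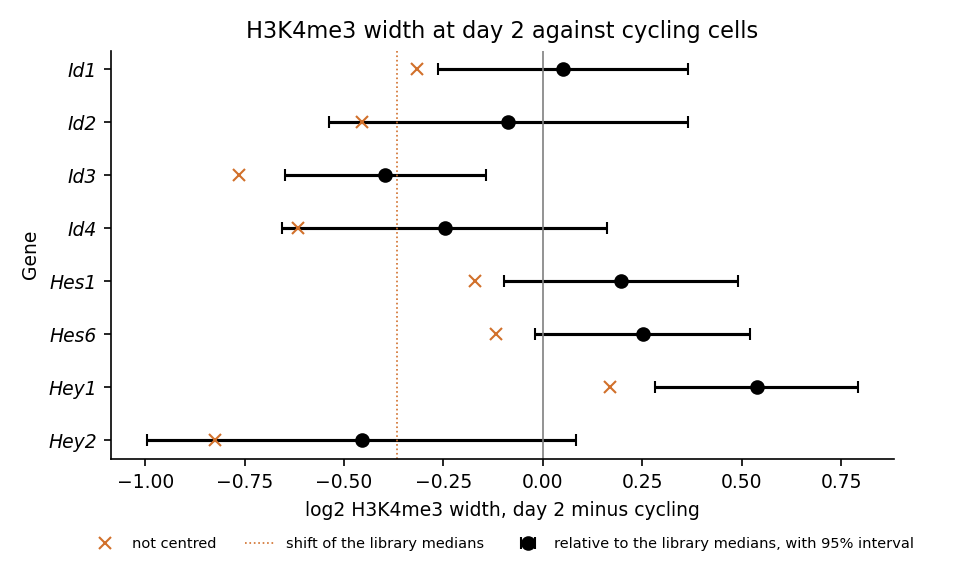
Change in H3K4me3 width (x axis, log2, day 2 minus cycling) of the 8 genes tested (y axis). Black points with bars are limma estimates relative to the library medians with 95% intervals, orange crosses the estimates without centring, and the dotted line the shift of the library medians, -0.37. The unadjusted intervals of Id3 and Hey1 leave out 0, on opposite sides. Of all 14431 genes tested, 3224 had an unadjusted limma p under 0.05.

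PSME3 was found at 5 of the 9 genes in the pooled cycling list, namely Id2, Id3, Id4, Hes6 and Hey1. Among all genes 11.8% had such a peak, and among the 17935 genes with pooled H3K4me3 the share was 32.3%. Of the 553 genes with a pooled H3K4me3 peak at least as wide as that of Id1, 48.6% had one, and of the 4 broad genes described here Id2 and Id3 did. The peak of Id3 had a fold enrichment of 3.26 (q = 0.000626), that of Hey1 3.27 (q = 0.000714), that of Id4 3.04 (q = 0.0169), that of Id2 2.81 (q = 0.022) and that of Hes6 2.38 (q = 0.0753). They ranked at the 79.65, 79.87, 62.54, 33.74 and 0.4646 percentile of fold enrichment among 5812 peaks. By width they ranked from the 16.69 percentile at Hey1 to the 95.75 percentile at Id4.

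The replicates differed at these genes. Replicate 3 held a PSME3 peak at Id2 (721 bp), Id3 (634 bp), Id4 (1000 bp) and Hey1 (261 bp), while replicates 1 and 2 held none at any of the 9 genes. The share of genes with pooled H3K4me3 that had a PSME3 peak in replicate 3 was 19.6%, and the share with one in at least 2 replicates was 6.27%, beside 4 and 0 of the 9 genes. The replicate 3 list was the longest, with 3070 peaks beside 1200 and 776. Hes6 had a PSME3 peak in the pooled list alone. None of the 4 day 2 lists, with 23, 18, 186 and 77 peaks in that order, had a peak at any of the 9 genes. At these list lengths the lack of a day 2 peak does not show that PSME3 was absent.

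**Figure D4:**
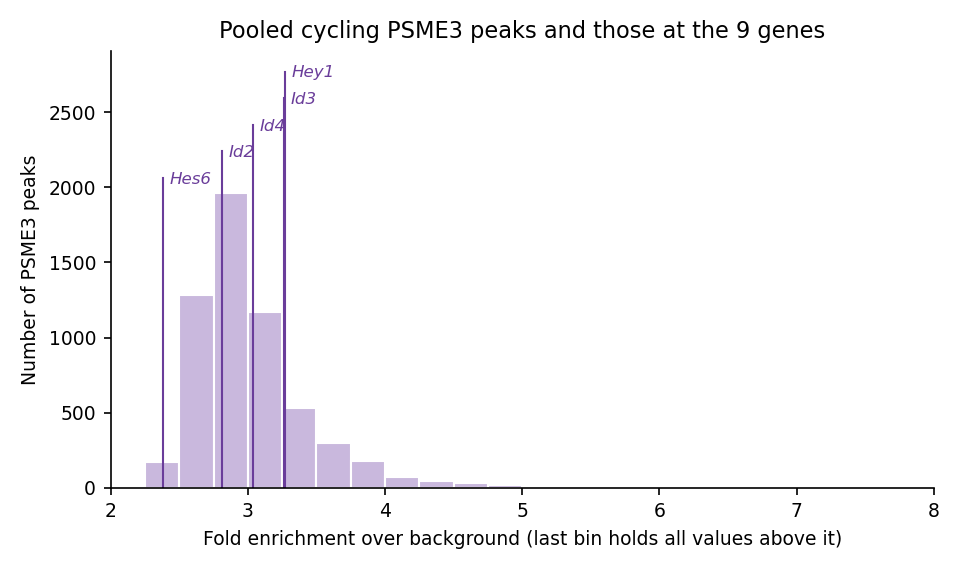
Number of pooled cycling PSME3 peaks (y axis) by fold enrichment over background (x axis, in bins of 0.25). Vertical lines mark the 5 peaks at Hes6, Id2, Id4, Id3 and Hey1, whose fold enrichment runs from 2.38 to 3.27.

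Each of the 5 PSME3 peaks lay inside the H3K4me3 peak of its gene. At Id4 the PSME3 peak was 1222 bp (chr13:48260666-48261887), covered the transcription start site and took up 49.1% of the H3K4me3 width. At Id3 it was 668 bp (chr4:136143437-136144104), also over the start site, and took up 7.63%. At Id2, a gene on the minus strand, the pooled peak of 368 bp (chr12:25096269-25096636) lay 177 bp upstream of the start site. The replicate 3 peak there (chr12:25095887-25096607) covered the start site. The pooled peak of Hes6, 541 bp long (chr1:91413409-91413949), lay 89 bp inside the gene from its outermost start site. At Hey1 the peak of 262 bp (chr3:8666858-8667119) crossed the higher-coordinate end of the gene. The centres of PSME3 and H3K4me3 peaks were 339 to 558 bp apart at these 5 genes. Of the genes without a PSME3 peak, Hes1 had one just outside the limit, 910 bp long with a fold enrichment of 2.69 (q = 0.0396), at 1305 bp from the gene, inside the H3K4me3 domain and also found in 1 replicate. The nearest PSME3 peak was 9.006 kb from Id1, 29.07 kb from Hey2 and 93.58 kb from Heyl. A further PSME3 peak near Id2, of 213 bp, lay 1776 bp from the gene.

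**Figure D5:**
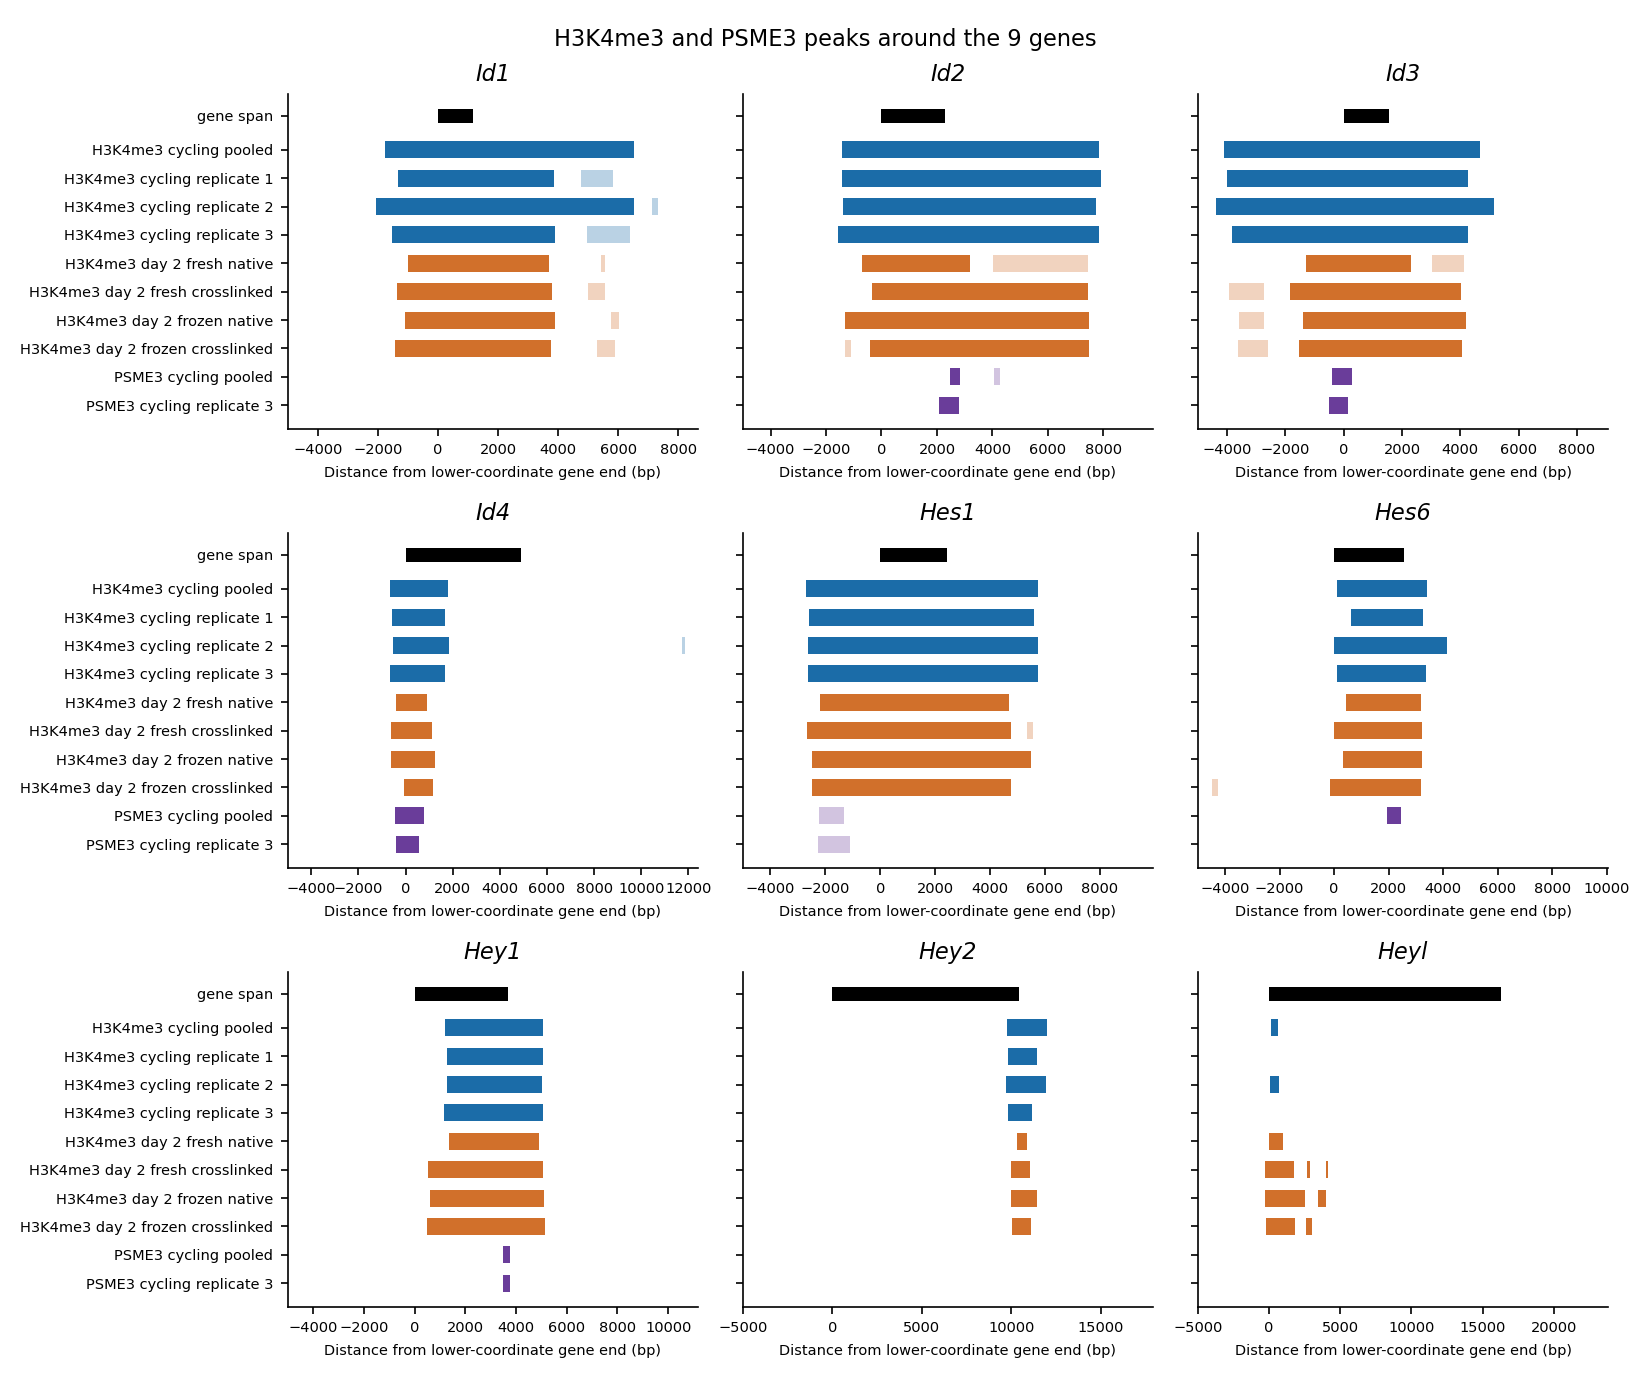
Peaks around each of the 9 genes, drawn by distance in bp from the lower-coordinate end of the gene (x axis), with 1 row per list. Black bars are gene spans, blue bars cycling H3K4me3, orange bars day 2 H3K4me3 and purple bars cycling PSME3; pale bars lie more than 1 kb from the gene. At Id3 the orange bar over the gene begins closer to it than the blue bars over the gene in all 4 day 2 lists, and at Heyl the longest orange bar of each day 2 list is longer than the blue bars.

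The promoters show the letters under these peaks, and they are given for the genes found in the RefSeq promoter table of GRCm38.p6, 5 of the 9. Each is the 250 bases before a start site, 5′ to 3′ on the strand of the gene. Capitals mark GGCGCC, a core bound by SMAD1 and SMAD5; TGGGAA, the core of RBPJ, the DNA-binding protein of Notch signalling; CACNAG, the N-box of Hes repressors; and CACGCG, a class C site, on either strand. For Id3 and Id4 all 250 bases lie in the pooled PSME3 peak.
Id3 (chr4:136143572-136143821, plus strand): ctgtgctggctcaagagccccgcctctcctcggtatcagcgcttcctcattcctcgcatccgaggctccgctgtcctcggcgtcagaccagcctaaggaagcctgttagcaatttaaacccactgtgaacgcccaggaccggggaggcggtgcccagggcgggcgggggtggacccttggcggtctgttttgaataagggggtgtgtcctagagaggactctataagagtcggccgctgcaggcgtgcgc
Id4 (chr13:48260866-48261115, plus strand): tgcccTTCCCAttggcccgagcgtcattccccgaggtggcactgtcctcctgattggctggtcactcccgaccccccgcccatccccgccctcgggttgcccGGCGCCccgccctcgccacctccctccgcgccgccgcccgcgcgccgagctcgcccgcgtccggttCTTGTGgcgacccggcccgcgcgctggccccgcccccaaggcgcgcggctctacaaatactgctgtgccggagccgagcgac
For Id2 the PSME3 peak covers 74 of these bases, and for the inner of 2 start sites of Hes6 it covers 64.
Id2 (chr12:25096093-25096342, minus strand): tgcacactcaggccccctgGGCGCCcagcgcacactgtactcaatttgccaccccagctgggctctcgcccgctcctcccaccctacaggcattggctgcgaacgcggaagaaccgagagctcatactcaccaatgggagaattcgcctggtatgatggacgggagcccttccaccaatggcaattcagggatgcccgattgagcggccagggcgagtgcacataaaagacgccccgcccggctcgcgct
Hes6 (chr1:91413223-91413472, minus strand): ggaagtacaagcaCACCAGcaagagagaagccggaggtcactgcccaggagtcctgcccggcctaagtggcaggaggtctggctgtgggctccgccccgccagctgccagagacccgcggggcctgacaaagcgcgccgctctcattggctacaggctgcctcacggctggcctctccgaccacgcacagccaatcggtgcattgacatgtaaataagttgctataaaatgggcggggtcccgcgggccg
Hey2 had H3K4me3 but no PSME3 peak and is shown beside them.
Hey2 (chr10:30842784-30843033, minus strand): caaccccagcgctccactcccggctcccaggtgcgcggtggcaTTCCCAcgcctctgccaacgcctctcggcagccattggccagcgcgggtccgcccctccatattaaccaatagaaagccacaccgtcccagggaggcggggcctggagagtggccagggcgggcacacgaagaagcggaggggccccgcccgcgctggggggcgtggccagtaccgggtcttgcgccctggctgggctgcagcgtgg

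These windows held 18 CpG dinucleotides at Id2, 18 at Id3, 35 at Id4, 17 at the inner Hes6 start and 22 at Hey2, beside a median of 6 over the 32851 promoters of the table. Searched on both strands, GGCGCC occurred once at Id4, from position -148 relative to the start site, and once at Id2, from position -231, and was present in 9.59% of all promoters. TGGGAA occurred at Id4 and Hey2, beside 21.6% of all promoters. CACNAG occurred at Id4 and at the inner Hes6 start, beside 36.7%, and CACGCG (7.62%) in none of them. Of the general E-box CANNTG, present in 66.2% of promoters, there was no match at Id3 or Id4. Its special form CACGTG (6.02%) and the SMAD4 core GTCTAGAC (0.167%) were in none of the windows, and TATAAA (12.4%) was found at the inner Hes6 start. Id3 held none of the 8 motifs searched. A match is a run of letters and was not tested as a binding site.

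Some domains are shared with a neighbouring gene, so that a width cannot be given to one gene alone. The H3K4me3 peaks of Id4 and Hey1 also lay on the overlapping genes A330033J07Rik, a long noncoding RNA, and LOC115489673. The peak of Hes1 also covered the long noncoding RNA Gm32998, 67 bp from it, and that of Id3 reached Gm42329, 1604 bp away.

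The genes that act with these inhibitors were examined through 6 lists with 79 genes in all, of which 64 could be tested, 4 were wider at day 2 and 3 were wider in cycling cells, where the shares over all genes tested were 1.73% and 2.72%. Their median change was 0.13, beside 0.01 over all genes. In the Notch list, 2 of 24 tested genes were wider at day 2 (1.73% of all genes tested) and none in cycling cells (2.72%). Dll1, a Notch ligand, measured 2509, 3821 and 2230 bp in cycling cells and 5110, 5585, 5844 and 6411 bp at day 2, a centred change of 1.41 (limma adjusted p = 0.00148) with no overlap. Numbl, a relative of the Notch antagonist Numb, changed by 0.44 (limma adjusted p = 0.0476). In the BMP list, 2 of 18 tested genes were wider at day 2, namely the BMP co-receptors Rgma (0.62, limma adjusted p = 0.0307) and Rgmb (0.46, limma adjusted p = 0.0432), and 1 was wider in cycling cells. That gene was Smad7, an inhibitory SMAD, at 20774, 25225 and 21575 bp in cycling cells and 11076, 12521, 13188 and 14500 bp at day 2 (-0.45, limma adjusted p = 0.0328).

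Of the other inhibitors of myogenic differentiation, 2 of 5 tested genes were wider in cycling cells, beside 2.72% of all genes tested. Msc, which encodes the MyoD antagonist musculin, measured 4114, 4540 and 4531 bp in cycling cells and 1232, 1862, 1502 and 1896 bp at day 2 (-1.09, limma adjusted p = 0.00196). Twist2, a basic helix-loop-helix inhibitor of MyoD, measured 5265, 8535 and 6134 bp in cycling cells and 2628, 3430, 3777 and 3593 bp at day 2 (-0.60, limma adjusted p = 0.0258). None of the 3 E protein genes and bHLH partners, the 11 co-repressor genes or the 3 other Hes-related genes tested passed the threshold.

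PSME3 was in the pooled list at 25 of the 79 genes, 69 of which had pooled H3K4me3, and at 7 of them it was also found in at least 2 replicates. Of all genes with pooled H3K4me3, 32.3% had pooled PSME3 and 6.27% had it in at least 2 replicates, so the pooled count was near the background. Among the 7 were the co-repressor gene Sin3a, Rbpj and its Notch coactivator gene Maml3, the E protein gene Tcf3, the Hes-related repressor Bhlhe40 and the inhibitory SMAD gene Smad6. Their pooled fold enrichment was 4.77 at Maml3, 4.58 at Sin3a, 4.31 at Bhlhe40, 4.27 at Tcf3, 3.51 at Smad6 and 3.21 at Rbpj. At day 2, PSME3 peaks were listed at Maml3 in 1 preparation and at Sin3a in 2. Of all 49980 genes, 299 had a PSME3 peak in any day 2 list.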

How the data were processed

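CUT&RUN libraries of C2C12 cells were used, 7 with the H3K4me3 and 7 with the PSME3 antibody; 7 IgG libraries were not used here. The authors used Trim Galore for trimming, Bowtie2 for alignment and MACS2 for broad peak calls, once per library and once on pooled cycling replicates. Versions, options and the control library were not given in the sources used here. The deposited lists give for each peak a score, a fold enrichment (a ratio to background), and both p-value and q-value as -log10, with all q-values under 0.1. They hold no read counts, so depth is unknown and no counting interval was possible.

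Gene spans came from the RefSeq table of GRCm38.p6, which has no strand, and promoters from its promoter table. The sum of peak widths per gene was taken to log2, centred on the median of each library and tested with limma 3.58.1 (R 4.3.3) over the 14431 genes with a peak in all H3K4me3 lists, with Benjamini-Hochberg adjustment; single genes also had an exact permutation test over libraries. Tested on simulated data for this comparison (14431 genes, 200 changed by 1 on the log2 scale), the fit recovered 141 with 10 false calls. Tables were made in Python 3.11.15 with numpy 2.4.6 and pandas 2.3.3. The 9 genes and the gene lists were chosen with earlier results of these data known, so p-values were adjusted over all genes alone. The genes named are the 9, their neighbours under the same peak, listed pathway genes that were called or had PSME3 in at least 2 replicates, and the 3 genes most like Id2, apart from 1 gene that is not reported here. Alternatives included uncentred widths, the widest peak, clipped widths, fold enrichment, a distance of 0 bp or 3 kb, a q-value of at most 0.01, and each library left out. The cover of the pooled cycling peak was computed as a description after the widths were seen.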

Additional observations from a re-analysis of the deposited data

Results flagged for a closer look

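Among the 4 day 2 preparations, the fresh native library was far below the others at 2 genes. H3K4me3 width at Id3 was 3607 bp in that library, with a gap to the nearest preparation of 0.874 of the whole range, and at Hey1 it was 3540 bp, with a gap of 0.876 of the range. Both exceed the 95% limit of Dixon's test for 4 values. Chance flags about 1 in 20 such groups, and 18 groups of values were examined. The fresh native library also had the lowest median width of the 7 H3K4me3 libraries, 1962 bp beside 2517 to 3564 bp, and its part in these 2 values was not tested.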

How the results depend on the processing

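Without centring, 38 genes were wider at day 2 and 846 in cycling cells. With the widest single peak 378 and 465 were, and with fold enrichment 440 and 401, which turned the balance of the main 250 and 393. With the native day 2 preparations alone they were 38 and 154, and with frozen native alone 0 and 0 in limma, with 1348 genes at an unadjusted p under 0.05. In that last fit day 2 is 1 library, assumed to vary like the cycling replicates, so its lack of calls says nothing about stability. Leaving out 1 library gave 122 to 220 genes wider at day 2 and 202 to 372 wider in cycling cells. The number of the 9 genes with PSME3 was 2 at a q-value of at most 0.01, 0 when 2 replicates had to hold the peak and 0 to 4 when 1 replicate was left out and a pooled peak had to be in 1 of the others, with 0 without cycling replicate 3. The pooled list itself could not be called again, and Hes6, which no replicate list holds, drops out under that requirement in any case.

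The change of Id1 turned to -0.32 without centring, -0.0028 with the widest peak, -0.081 with fold enrichment and -0.0209 with frozen native alone, and ran from -0.0255 to 0.18 with 1 library left out. Id2 turned to 0.16 with clipped widths and at 3 kb, 0.0745 with fold enrichment and 0.23 with frozen native alone, and ran from -0.20 to 0.0788. Id3 turned to 0.28 with clipped widths and 0.11 with fold enrichment, and was called with the widest peak (-0.45, limma adjusted p = 0.0489), although it has 1 peak in every list, so that the move came from the other genes. Hes1 turned to -0.17 without centring and -0.0342 with fold enrichment, Hes6 to -0.12 without centring, and Hey2 to 0.23 with fold enrichment and 0.0153 with frozen native alone. No value that turned sign was called. At Id2 and Id3 the cycling domains filled the whole clipped window, so clipped widths could not show changes farther than 1 kb from the gene. The call of Hey1 was lost without cycling replicate 1 (limma adjusted p = 0.0579) or 3 (0.0866) and without any 1 of the day 2 preparations (0.0726 to 0.0917). The causes were not tested. No paired analysis was possible because the day 2 libraries carry no replicate numbers.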
